A study of Mus musculus with 8 samples.

Results

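The 43 genes described here encode members of the nuclear receptor superfamily other than the COUP-TFs, the receptors that the study itself knocked down. Probes were taken by gene symbol and not by level, but the member list was chosen with earlier results of these data known. Every non-control probe whose gene name on the array was one of the 43 was taken. The brightest probe stood for a gene that had several. The array carried 35513 gene names in all. RNA came from neurospheres, floating balls of neural stem and progenitor cells, obtained by differentiating EB3 mouse embryonic stem cells. Embryoid bodies made with Noggin, a BMP inhibitor, were dissociated and infected with lentivirus at a multiplicity of about 25, then cultured for 6 days with FGF2 at 20 ng/ml in a serum-free medium that also contained insulin and progesterone.

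There were 4 conditions, each measured as primary (P0) and tertiary (P2) neurospheres. They were a control shRNA (shCont), an shRNA against both Nr2f1 and Nr2f2 (shNr2f1/2), a control miRNA vector (miRCont) and a vector expressing miR-17 (miR17). Every culture, controls included, had been infected with lentivirus and had come from the same stem cell line. Each of the 8 groups was 1 array, with no replicate, so differences between 2 arrays have no replicate check and only effects shared by several arrays could be tested. The labels do not say that the cultures were grown independently, so p-values measure only the spread among these arrays, which may be technical.

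Nuclear receptors are transcription factors, many of which bind small lipophilic ligands such as retinoic acid, thyroid hormone, steroids, oxysterols and fatty acids. Several act as heterodimers with an RXR partner, others as homodimers or monomers, and a number are orphans with no established physiological ligand. In neural progenitors, Nr2e1 (Tlx) is known for maintaining self-renewal, while Nr0b1, Esrrb and Nr5a2 belong to the network that maintains embryonic stem cells. Retinoid and thyroid hormone receptors are known for roles in neural patterning, glial differentiation and maturation.

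The mature sequences of the overexpressed miRNA are shown because its seed is what a target transcript pairs with. The capitals mark the seed, bases 2 to 8, and the sequences are from RefSeq (GRCm38.p6, chromosome 14, plus strand). The labels name miR-17 without an arm.
mmu-miR-17-5p: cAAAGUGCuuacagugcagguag
mmu-miR-17-3p: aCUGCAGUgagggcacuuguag
The 5p seed is shared with the mature miR-106a, miR-106b, miR-20a, miR-20b and miR-93 5p arms and with miR-6383. The 3p seed is shared with miR-106a-3p and miR-20b-3p.

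Promoter sequence is shown for 5 members, as 250 bases upstream of a RefSeq start site on the gene's strand (GRCm38.p6). Nr4a1 and Nr4a2 are close paralogs whose levels moved differently between passages, and Nr4a2 was added after its values were seen. Rxrg, Thrb and Nr0b1 are the 3 members that passed the passage test and had the hexamer AGGTCA, which many nuclear receptors bind, in a window. Rxrg and Thrb each have 2 windows, of which only the one shown holds the hexamer. Capitals mark matches, on either strand, to the hexamer AGGTCA, the E-box CACGTG or TGACG, the core of the cAMP response element, whose reverse complement is CGTCA.
Nr4a1, chr15:101266596-101266845, plus strand: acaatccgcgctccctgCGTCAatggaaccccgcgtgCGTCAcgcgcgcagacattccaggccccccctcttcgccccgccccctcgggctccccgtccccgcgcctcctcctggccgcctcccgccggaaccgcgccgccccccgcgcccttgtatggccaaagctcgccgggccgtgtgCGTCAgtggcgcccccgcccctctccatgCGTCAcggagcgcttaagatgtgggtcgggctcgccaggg
Nr4a2, chr2:57124004-57124253, minus strand: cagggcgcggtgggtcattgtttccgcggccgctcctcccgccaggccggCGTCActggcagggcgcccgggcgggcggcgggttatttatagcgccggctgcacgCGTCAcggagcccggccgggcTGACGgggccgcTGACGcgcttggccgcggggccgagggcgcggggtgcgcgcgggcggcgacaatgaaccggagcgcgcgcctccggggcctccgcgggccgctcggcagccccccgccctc
Rxrg, chr1:167618015-167618264, plus strand: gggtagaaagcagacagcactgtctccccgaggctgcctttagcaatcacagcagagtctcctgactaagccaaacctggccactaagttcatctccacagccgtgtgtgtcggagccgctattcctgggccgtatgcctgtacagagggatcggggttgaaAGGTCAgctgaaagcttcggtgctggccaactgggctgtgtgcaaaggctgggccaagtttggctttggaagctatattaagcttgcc
Thrb, chr14:17660710-17660959, plus strand: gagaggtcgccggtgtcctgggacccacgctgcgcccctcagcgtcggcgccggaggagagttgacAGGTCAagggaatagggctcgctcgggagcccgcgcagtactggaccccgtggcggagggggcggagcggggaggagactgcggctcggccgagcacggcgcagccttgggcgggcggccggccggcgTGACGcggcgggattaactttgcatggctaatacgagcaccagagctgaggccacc
Nr0b1, chrX:86191525-86191774, plus strand: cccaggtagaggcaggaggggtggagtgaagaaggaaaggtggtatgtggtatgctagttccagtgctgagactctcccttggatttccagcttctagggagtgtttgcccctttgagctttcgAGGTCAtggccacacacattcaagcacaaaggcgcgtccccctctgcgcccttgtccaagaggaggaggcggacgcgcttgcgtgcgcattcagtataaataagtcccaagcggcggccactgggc

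Of the 43 members, 39 had at least 1 RefSeq promoter window of 300 bases (250 before the start site and 50 after), 59 windows in all. AGGTCA was found in 12 of those 59 windows (20.3%), against 16.3% of all 32851 windows, and TGACG in 17 (28.8%), against 20.8%. TGACGTCA, which contains TGACG, was in 2 member windows (3.39%, against 1.79%), and CACGTG in 6 (10.2%, against 7.15%). Direct repeats of AGGTCA spaced by 1, 2, 4 or 5 bases were in no member window and in at most 0.0396% of all windows. The windows of Nr4a1, Nr4a2 and Nr4a3 each held 4 matches to TGACG, a number reached by 76 of the 32851 windows (0.231%). Such matches are letters in a window and describe no binding.

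The 8 arrays lay on 1 slide, per the file headers, with the shRNA arrays on one side and the miRNA arrays on the other, so vector system and slide side cannot be told apart. Between 57.9% and 67.9% of non-control spots were well above background and none was saturated, and the small number of arrays limits the precision. Nr2f1 was lower on the shNr2f1/2 array than on the shCont array by a log2 difference of -0.80 at P0 and -1.17 at P2, and Nr2f2 by -0.51 and -0.90, while miRCont differed from shCont by -1.09 at P0 and 0.77 at P2 for Nr2f1 and by -1.12 and -1.20 for Nr2f2. All 10 neural stem and progenitor markers, Nes, Pax6, Sox1 and Sox2 among them, passed the filter, with a summed level, as a ratio to the array's 75th percentile, of 214 to 332 at P0 and 269 to 554 at P2. Markers of other cell types moved with passage: 5 of 10 astrocyte and 5 of 10 oligodendrocyte lineage markers rose from P0 to P2, as did 4 of 9 crest and mesenchyme markers. One neural stem marker of 10 rose, 1 of 8 neuronal markers fell, and 3 of 10 pluripotency markers fell while 1 rose. Of these 3, Dppa3 entered the fit only through P0 arrays, where it was high, so its call is no test. No proliferation, endoderm and mesoderm or endothelial and blood marker passed. Foxd3, Alb, Mesp1 and Tek were dim on every array. The summed level of the astrocyte markers was 16.3 to 23.9 at P0 and 67.2 to 439.0 at P2, that of the oligodendrocyte markers 8.38 to 12.8 and 14.8 to 435.0, that of the crest and mesenchyme markers 8.99 to 36.5 and 31.0 to 98.2, that of the pluripotency markers 11.8 to 29.1 and 7.02 to 8.10, and that of the proliferation markers 84.6 to 123.6 and 6.40 to 85.1. In bulk RNA, fewer cells of a type and less RNA per cell cannot be told apart, and the part of these cell types in the results below was not tested.

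Of the 43 members, 29 were well above background on all 8 arrays and 35 on at least 2, which was the condition for testing. Hnf4g, Nr1h4 (FXR, the bile acid receptor), Nr2e3 (a photoreceptor regulator), Esr1 (estrogen receptor alpha) and Vdr (the vitamin D receptor) were each well above background on a single array, and Nr0b2, Nr1i2 and Nr4a3 on none. Values below are log2 levels with the array's 75th percentile at 0, so a negative level lies below that percentile. Levels of different genes are not comparable, since each comes from its own probe. In each sentence that gives 8 values, the order within a passage is shCont, shNr2f1/2, miRCont, miR17.

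Between P0 and P2, with condition as a block, 4 receptor genes rose and 3 fell at an adjusted p under 0.05 (limma, Benjamini-Hochberg over the 27120 genes tested). Rxrg, Nr4a1, Thrb and Nr3c1 rose, and Nr0b1, Esrrb and Nr2e1 fell. Of all genes tested, 5.1% were called. The rising members were 11.4% of the 35 tested, where 2.68% of all genes rose, and the falling ones 8.57%, where 2.42% fell. All 4 P2 arrays stood above all 4 P0 arrays for 10 of the 35 (28.6%, against 9.27% of all genes) and below them for 4 (11.4%, against 15.2%). A member that was above background only on arrays of one passage could pass the filter through them alone, so these shares describe the members tested and not all 43. The median difference was 0.18 over the members tested and -0.21 over all genes (-0.02 for all genes after quantile normalization).

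The calls were sensitive to the arrays used. With condition as a block, an array whose partner from the other passage is left out carries no passage difference. Each omission of an array therefore removes a whole pair from the passage test, and a residual degree of freedom with it. Leaving out either shCont, miRCont or miR17 array, at either passage, left no member and no gene called, while leaving out either shNr2f1/2 array gave 11 members and 4880 genes in place of 7 and 1383. Without the filter on dim probes Nr2e1 and Nr4a1 were not called, and without the condition block Nr2e1 was not. Neither the shRNA pair nor the control pair of conditions alone called a gene, and the miRNA pair alone called 22 members among 13638 genes. Of the calls over all genes, 52.5% were upward, against 66.2% after quantile normalization and 30.8% with normexp background correction, which called 5 and 8 members upward and 3 and 4 downward.

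**Figure D1:**
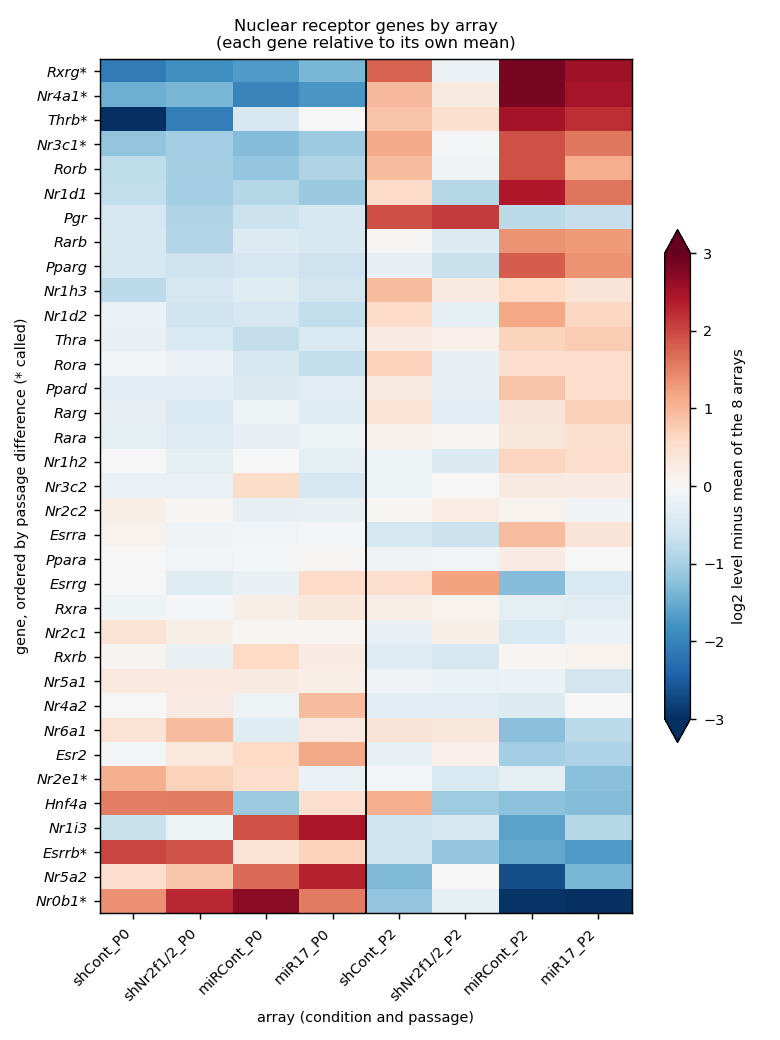
Log2 level of each of the 35 tested receptor genes (rows) on each of the 8 arrays (columns, P0 left of the line), minus the gene's own mean over the arrays. Red is above and blue below that mean, asterisks mark the 7 genes that passed the passage test, and the colour scale ends at 3, beyond which values are drawn in the end colour.

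**Figure D2:**
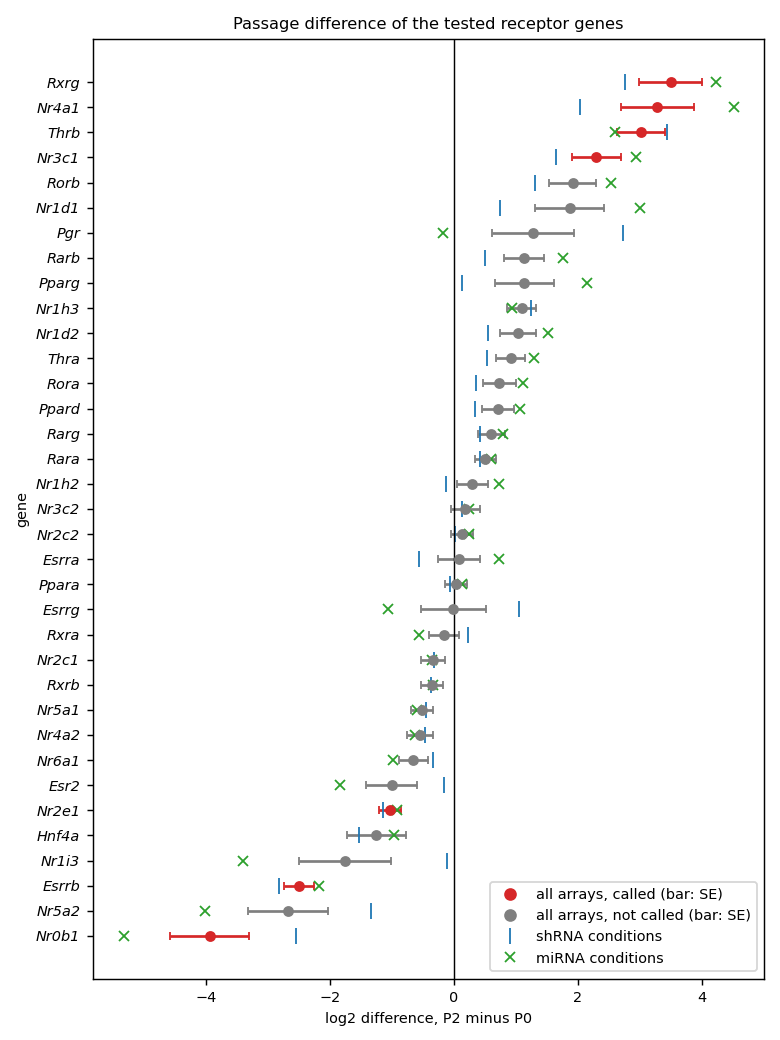
Log2 difference P2 minus P0 for the 35 tested receptor genes, as circles with bars of 1 standard error (red where adjusted p was under 0.05), with the mean of the shRNA conditions (vertical ticks) and of the miRNA conditions (crosses). Rxrg lies at the top at 3.50 and Nr0b1 at the bottom at -3.95, and ticks and crosses lie far apart for Nr1i3 and Pgr.

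Among receptors of the embryonic stem cell network, Nr0b1 (Dax1), a receptor without a DNA-binding domain that acts as a repressor, had the largest fall of any member. Its levels were -2.12, -1.24, -0.79 and -1.93 at P0 and -4.67, -3.80, -6.44 and -6.96 at P2, and the P2 values of miRCont and miR17 were not well above background. Every P2 array was below every P0 array. The difference was -3.95 (SE 0.64, adjusted p = 0.042, limma), and with the dim arrays at their floor Nr0b1 was at least 9.19-fold lower at P2. Such a bound sets a dim array at the lowest signal of any probe well above background on it, or at the probe's own value where that is higher. Its probe lies at chrX:83441169-83441228 (mm9, the build of the file headers). What part of a transcript the probes cover was not analysed here.

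Esrrb, an orphan receptor that sustains pluripotency, had levels of 0.46, 0.34, -1.14 and -0.85 at P0 and -2.14, -2.72, -3.09 and -3.26 at P2. It was well above background on all 8 arrays, and the passages did not overlap. It fell by 2.51 (SE 0.24, adjusted p = 0.030, limma), the smallest adjusted p of any member, and the difference was -2.60, -3.06, -1.95 and -2.41 in the 4 conditions. The P0 arrays split by vector system, since both shRNA arrays exceeded both miRNA arrays. The Esrrb probe lies at chr12:87862509-87862568 (mm9), and another Esrrb probe was well above background on 1 array.

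Nr5a2 (Lrh1), which can activate Pou5f1, stood at -2.21, -1.88, -1.01 and -0.41 at P0 and at -4.05, -2.72, -5.37 and -4.09 at P2. The passages did not overlap, yet its difference of -2.68 (SE 0.64) did not pass (adjusted p = 0.063, limma). It was not well above background on the miRCont P2 array, and with that array at its floor Nr5a2 was at least 6.00-fold lower at P2. Another Nr5a2 probe was well above background on no array. Nr6a1 (GCNF), a repressor of Pou5f1 during differentiation, had a difference of -0.66 (SE 0.24, adjusted p = 0.108), and was not well above background on either miRCont array. Nr5a1 (SF1), the steroidogenic factor, ranged from -0.92 to -0.82 at P0 and from -1.67 to -1.23 at P2, a difference of -0.52 (adjusted p = 0.098, limma).

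In a list of 16 fitted genes of the pluripotency network, 3 were called lower and 1 higher, and the call of Dppa3 is no test. Zfp42 (Rex1) was at least 8.13-fold lower at P2, with 3 of 4 P2 arrays not well above background, and Fgf4 at least 4.76-fold lower, with 2. Dppa3 was not well above background on any P2 array and at least 2.08-fold lower. It entered the fit only through 2 P0 arrays, where it was high. Klf4, a stem cell factor also expressed in differentiated cells, rose by 1.28 (SE 0.22, adjusted p = 0.047, limma). The list's median difference was -0.81, against -0.21 over all genes.

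Nr2e1 (Tlx), the orphan receptor of neural stem cells, was lower at P2 in each condition and passed the test. Its levels were 2.20, 1.82, 1.66 and 0.93 at P0 and 1.06, 0.66, 0.84 and -0.11 at P2. The passages overlapped, because miR17 at P0 lay below shCont at P2, and the P2 minus P0 difference within a condition was -1.16 to -0.82. The difference was -1.04 (SE 0.18, adjusted p = 0.045, limma). The probe lies at chr10:42281826-42281885 (mm9). Nr2c1 and Nr2c2, orphan receptors known as TR2 and TR4, had differences of -0.34 and 0.13, neither of which passed (adjusted p = 0.247 and 0.620, limma).

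**Figure D3:**
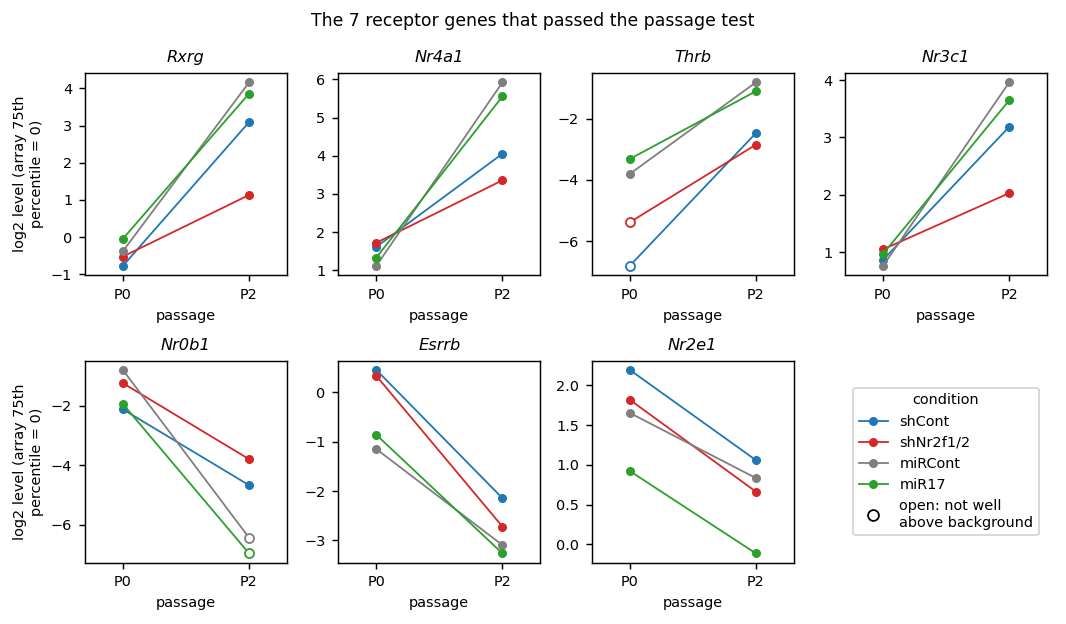
Log2 level at P0 and P2 for the 7 receptor genes that passed the passage test, 1 line per condition and 1 array per point, with open circles for arrays not well above background. All 4 lines rise for Rxrg, Nr4a1, Thrb and Nr3c1 and fall for Nr0b1, Esrrb and Nr2e1, and at P2 the shNr2f1/2 point is the lowest for Rxrg, Nr4a1, Thrb and Nr3c1.

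Of the retinoid receptors, Rxrg passed and the others did not. Rxrg encodes the RXR isotype with the most restricted expression, a heterodimer partner of many other receptors. It stood at -0.78, -0.53, -0.39 and -0.05 at P0 and at 3.09, 1.13, 4.16 and 3.86 at P2, with no overlap between passages. The difference was 3.50 (SE 0.51, adjusted p = 0.039, limma), an 11.3-fold rise. The rise was 3.87 in shCont, 1.66 in shNr2f1/2, 4.55 in miRCont and 3.91 in miR17. The probe lies at chr1:169569624-169569683 (mm9).

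A second Rxrg probe close by, at chr1:169569496-169569555, gave a smaller difference. It read 1.99, 1.86, 1.57 and 1.35 at P0 and 2.75, 1.94, 3.56 and 3.39 at P2, a difference of 1.22, and with the probe of highest mean log2 value in use Rxrg was no longer called (adjusted p = 0.201, limma). The shNr2f1/2 P2 array of this probe lay below the shCont P0 array, so here the passages overlapped. The size of the Rxrg rise therefore depended on the probe.

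Rxra and Rxrb, the widely expressed partners, had differences of -0.17 (SE 0.25) and -0.36 (SE 0.18), and that of Rxra turned to 0.21 after quantile normalization. Rara, Rarb and Rarg, the retinoic acid receptors, had differences of 0.51, 1.13 and 0.60, with adjusted p of 0.098, 0.076 and 0.112 (limma). Rara ranged from 2.46 to 2.72 at P0 and from 2.90 to 3.33 at P2. Rarb, itself a target gene of retinoic acid, ranged from -2.29 to -1.82 and from -1.81 to -0.05, its 2 miRNA arrays at P2 being the highest. Its 3 probes disagreed, with differences of 1.13 and 0.70 from the probes at chr14:17263367-17263426 and chr14:17264648-17264707 (mm9) and -1.39 from that at chr14:17651424-17651483, which was well above background on 5 of 8 arrays.

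In the list for retinoid metabolism and binding, 3 of 15 fitted genes were called lower and none higher, and the call of Dhrs9 is no test. Crabp2, a carrier that delivers retinoic acid to the nucleus, fell by 3.12 (SE 0.35, adjusted p = 0.034, limma). Stra6, the receptor for retinol-binding protein, fell as well, at least 4.02-fold with 1 P2 array dim. Dhrs9, a retinol dehydrogenase, was dim on all P2 arrays and at least 1.48-fold lower. It entered the fit only through 2 P0 arrays, where it was high. Dhrs3 and Rdh5, enzymes that interconvert retinol and retinaldehyde, had differences of 2.91 and 4.53 that did not pass (adjusted p = 0.061 and 0.071). The list's median difference was 0.44, so its median and its calls differed in sign.

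Thrb, a thyroid hormone receptor, rose while Thra, the isoform gene that predominates in brain, did not pass. Thrb stood at -6.81, -5.39, -3.81 and -3.32 at P0 and at -2.47, -2.85, -0.82 and -1.11 at P2. The 2 shRNA arrays at P0 were not well above background, and the passages did not overlap. The difference was 3.02 (SE 0.39, adjusted p = 0.036, limma), and with the dim arrays at their floor Thrb was at least 5.60-fold higher at P2. A second Thrb probe, well above background on 4 arrays, gave 3.08. The probe used lies at chr14:18868800-18868859 (mm9).

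Thra ranged from 2.72 to 3.21 at P0 and from 3.58 to 4.20 at P2, a difference of 0.91 (SE 0.24, adjusted p = 0.069, limma). Of 11 tested genes for thyroid hormone transport and response, 1 rose, Hr (hairless), a thyroid-responsive corepressor, which was at least 11.8-fold higher at P2 with 2 P0 arrays dim. Thrsp, a thyroid-responsive lipogenic gene, had a difference of 7.27 that did not pass (SE 1.66, adjusted p = 0.060). The list's median was 0.86.

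Among the steroid receptors, Nr3c1, the glucocorticoid receptor, rose. Its levels were 0.87, 1.05, 0.76 and 0.97 at P0 and 3.19, 2.03, 3.96 and 3.65 at P2. The P0 arrays lay within 0.29 of each other, and all P2 arrays were higher. The difference was 2.29 (SE 0.40, adjusted p = 0.046, limma), a 4.90-fold rise, and a second probe gave 2.94. Nr3c2, the mineralocorticoid receptor, had a difference of 0.18 (SE 0.23) that turned to -0.12 with normexp background correction.

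None of 13 tested glucocorticoid target genes passed, with a median difference of -0.32. The differences of the metallothionein genes Mt1 and Mt2 were 3.29 (SE 0.88, adjusted p = 0.070, limma) and 2.80 (SE 1.09, adjusted p = 0.123). On the shNr2f1/2 array at P2 they differed from the shCont array by -3.52 and -3.34. Esr2 (estrogen receptor beta) had levels of 3.07, 3.44, 3.71 and 4.27 at P0 and 2.91, 3.28, 2.11 and 2.19 at P2, a difference of -1.0 that did not pass (adjusted p = 0.134). Pgr, the progesterone receptor, was well above background only on the 2 shRNA arrays at P2.

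Nr4a1 (Nur77), an orphan receptor gene induced rapidly by growth factors, calcium and cAMP, rose beside other immediate early genes. It stood at 1.61, 1.72, 1.11 and 1.32 at P0 and at 4.05, 3.36, 5.92 and 5.55 at P2, without overlap. The difference was 3.28 (SE 0.59, adjusted p = 0.049, limma), a 9.71-fold rise. The P2 levels of both miRNA arrays exceeded those of both shRNA arrays. The probe lies at chr15:101105071-101105130 (mm9).

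Its paralog Nr4a2 (Nurr1), a receptor of dopaminergic neurons, ranged from 1.21 to 2.31 at P0 and from 0.94 to 1.33 at P2, a difference of -0.54 (SE 0.21, adjusted p = 0.118, limma). A second probe gave -0.89. Nr4a3 was on no array well above background. The promoter windows of all 3 paralogs, shown above for Nr4a1 and Nr4a2, held the same number of TGACG matches, and of the pair that could be tested Nr4a1 passed and Nr4a2 did not.

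Of 12 tested immediate early genes, 6 rose and none fell, with a median difference of 2.17 against -0.21 over all genes. Egr2 rose by 4.48 (SE 0.48, adjusted p = 0.032, limma), Fos by 4.36 (SE 0.80, adjusted p = 0.04996) and Egr1 by 2.65. Junb was at least 15.3-fold higher with 1 P0 array dim. Fos, Junb and the Egr genes encode transcription factors that cells make within minutes of a stimulus. The summed level of the list ranged from 35.6 to 82.7 at P0 and from 168 to 329 at P2.

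None of the clock-related receptors passed. Nr1d1 and Nr1d2 (Rev-erb alpha and beta), heme-binding repressors of the circadian clock, had differences of 1.87 (SE 0.56, adjusted p = 0.081, limma) and 1.03 (SE 0.29, adjusted p = 0.073). Nr1d1 stood at -2.98, -3.25, -3.10 and -3.36 at P0 and at -1.66, -3.10, 0.17 and -0.63 at P2. The P0 arrays were close to each other, and the shNr2f1/2 array at P2 stayed within their range while the other P2 arrays were above it. Nr1d1 and Thra overlap on opposite strands in RefSeq.

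Rora and Rorb, receptors that activate clock genes, had differences of 0.73 (adjusted p = 0.112) and 1.92 (SE 0.38, adjusted p = 0.053, limma). Rorb ranged from -1.57 to -1.17 at P0 and from -0.51 to 1.5 at P2, with no overlap. None of 16 tested clock genes passed, and their median difference was 0.46. Dbp, a clock output gene, had the largest difference of the list, 1.06 (SE 0.52), followed by Bhlhe40 with 0.97.

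The lipid-sensing receptors did not pass either. Nr1h2 and Nr1h3 (the liver X receptors, which sense oxysterols) had differences of 0.30 and 1.09, and Nr1h3 ranged from -3.97 to -3.55 at P0 and from -2.93 to -2.25 at P2 (adjusted p = 0.057, limma). Another Nr1h3 probe, well above background on all 8 arrays, gave 0.37, and by it the passages overlapped. Ppard and Pparg, fatty acid receptors, had differences of 0.70 (adjusted p = 0.109) and 1.13 (adjusted p = 0.142, limma). Ppara had 0.03 from the brightest probe, but 0.92 and 3.32 from its other probes, and passed when the probes were averaged. Nr1i3 (CAR), a xenobiotic receptor whose gene overlaps Tomm40l, had a difference of -1.76 (SE 0.74, adjusted p = 0.142).

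Of 12 liver X receptor targets and sterol genes, 1 rose, Abca1, a cholesterol exporter. Its difference was 4.47 (SE 0.64, adjusted p = 0.037, limma), and that of Apoe was 3.77 (adjusted p = 0.078). Of 15 tested PPAR targets and fatty acid oxidation genes, 2 rose and none fell. Cd36, a fatty acid transporter, was at least 24.0-fold higher at P2 with 2 P0 arrays dim. The PPAR list's median was 2.41 and that of the liver X receptor list 0.63.

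The estrogen-related receptors other than Esrrb gave small differences. Esrra, a regulator of mitochondrial genes, had 0.08 (SE 0.34), which turned to -0.02 after quantile normalization. Esrrg had -0.01 (SE 0.52), the mean of opposite differences, 0.51 and 1.58 in the shRNA conditions and -1.09 and -1.03 in the miRNA conditions. Hnf4a, a hepatocyte factor, was well above background on 3 arrays, shCont and shNr2f1/2 at P0 and shCont at P2. Of 29 tested coactivators and corepressors, Zfpm2 rose by 2.12 and Lcor fell by 1.49 (adjusted p = 0.036 and 0.042, limma), and the list's median was -0.07.

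The passage difference itself differed between the vector systems for 7 of the 35 receptor genes (20.0%, against 8.71% of all genes), by a term for the miRNA conditions minus the shRNA conditions. One of the 7, Pgr, entered the fit only through the arrays where it was high and is described without a test below. This test was chosen after the values were seen, and it cannot separate vector system from slide side. The P0-to-P2 change of Nr4a1 and Pparg was the more positive in the miRNA conditions, and that of Nr1i3, Pgr, Nr0b1, Nr5a2 and Esr2 the more negative. Leaving out either shNr2f1/2 array left 2 members called, leaving out either shCont array gave 9, and leaving out any miRNA array left none.

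Nr1i3 was at -1.46, -0.95, 1.12 and 1.65 at P0 and at -1.38, -1.26, -2.39 and -1.65 at P2. By this probe, the miRNA cultures started above the shRNA cultures and ended below them. Another Nr1i3 probe, at chr1:173148765-173148824 (mm9), was well above background on no array, so the result rests on a single probe. Its passage difference was -0.11 in the shRNA conditions and -3.41 in the miRNA conditions, a gap of -3.29 (SE 0.30, adjusted p = 0.030, limma).

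Pgr had another arrangement, high only on the 2 shRNA arrays at P2. It stood at -6.87, -7.26, -6.99 and -6.85 at P0 and -4.42, -4.26, -7.14 and -7.04 at P2. It was dim on the other 6 arrays and entered the fit only through the 2 shRNA arrays at P2, where it was high, so its call is no test of that arrangement. With the shRNA P0 arrays at their floor, Pgr was at least 1.61-fold higher at P2 in the shRNA conditions. Pparg stood at -2.52, -2.63, -2.51 and -2.62 at P0, within 0.12 of each other, and at -2.24, -2.66, -0.18 and -0.67 at P2. The 2 miRNA arrays at P2 stood apart, and the gap was 2.02 (SE 0.31, adjusted p = 0.040, limma).

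The gap was 2.48 for Nr4a1 (4.52 in the miRNA conditions, 2.04 in the shRNA conditions, adjusted p = 0.044) and -2.78 for Nr0b1 (-5.34 and -2.55, adjusted p = 0.032), by the same limma term. For Nr0b1 both miRNA arrays at P2 were dim, which makes its fall there at least 14.4-fold. Nr5a2 had a gap of -2.69 (adjusted p = 0.046) and Esr2 of -1.67 (adjusted p = 0.049). Rxrg, Thrb, Nr3c1, Esrrb and Nr2e1, the other genes that passed the passage test, did not pass this one (adjusted p from 0.189 to 0.625, limma). At P2 the summed astrocyte level was 174 in shCont and 67.2 in shNr2f1/2, against 439.0 and 415 in miRCont and miR17.

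**Figure D4:**
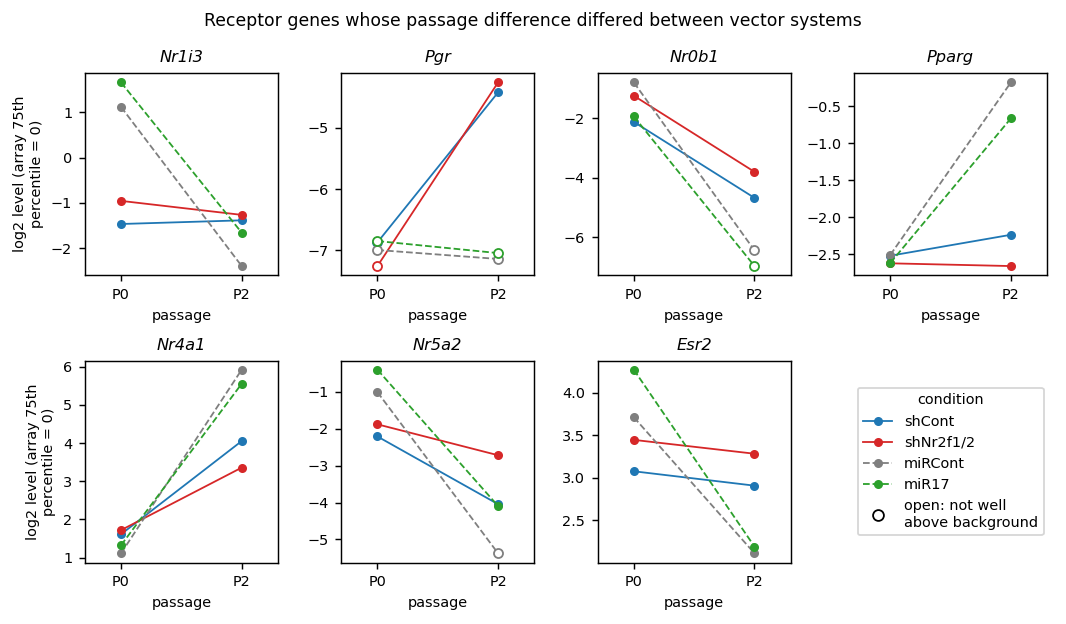
Log2 level at P0 and P2 for the 7 receptor genes whose passage difference differed between vector systems, with solid lines for the shRNA conditions, dashed lines for the miRNA conditions and open circles for arrays not well above background. Both dashed lines fall by over 3 for Nr1i3 while the solid lines stay within 0.6 of each other, and for Pgr only the solid lines rise.

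Knockdown of Nr2f1 and Nr2f2 gave no call for any member or any gene over both passages (limma, 0.0% of 27120 genes), with 518 genes and none of the 35 members at an unadjusted p under 0.05. A separate limma fit set the passage change in shNr2f1/2 against the mean change of shCont and miRCont, so it was not confined to the shRNA arrays. It left 1 residual degree of freedom and gave no call either (0.0%), with 1074 genes and 2 members at an unadjusted p under 0.05. The values below are differences between single arrays, shNr2f1/2 minus shCont, with no test. At P0 no member that was well above background on both arrays differed by 2-fold or more, and among all such genes 1.29% were higher and 0.502% lower.

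At P2, 4 of 34 such members were at least 2-fold lower with the knockdown (11.8%, against 9.0% of all genes) and 1 was higher (2.94%, against 7.28%). Rxrg was lower by a log2 difference of -1.96, Nr1d1 by -1.44, Nr3c1 by -1.16 and Rorb by -1.06, and Nr5a2 was higher by 1.32. The share of lower members was close to that of all genes. Hnf4a was dim with the knockdown and at least 1.76-fold lower.

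The P2 minus P0 differences of these 4 lower members in shCont, which use the same shCont P2 array, were 3.87, 1.33, 2.32 and 1.72 in the same order. In shNr2f1/2 they were 1.66, 0.15, 0.98 and 0.88. For Rxrg the knockdown difference was 0.25 at P0 and -1.96 at P2. In the fit with interaction terms, its passage change in shNr2f1/2 minus the mean change of shCont and miRCont was -2.55 (SE 0.74, unadjusted p = 0.026, adjusted p = 0.9998, limma). By the second Rxrg probe, the P2 arrays read 2.75 in shCont and 1.94 in shNr2f1/2.

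On the same pair of P2 arrays, the median difference was -2.16 over the astrocyte markers, -2.90 over the oligodendrocyte lineage markers and 2.47 over the proliferation markers. The part of these cell types in the receptor differences was not tested. Over whole pathway lists, the median difference was -0.63 for retinoid, -0.48 for thyroid, -0.48 for liver X receptor and -1.11 for PPAR genes. It was -0.08 for clock genes, 0.24 for coactivators and corepressors and -0.19 for the pluripotency network. Genes named from these lists were picked for the largest passage or single-array differences, so they do not stand for their lists. Among them, Rdh5 differed by -3.44, Dhrs3 by -3.11, Thrsp by -3.73, Apoe by -3.42, Abca1 by -2.44, Angptl4 by -2.99 and Hr by -2.12. Dbp was at -1.90, Bhlhe41 at -1.60 and Bhlhe40 at -1.37. In the other direction Tbx3 stood at 3.58, Bcl11b at 2.64, Slc16a10 at 2.36 and Bcl11a at 1.55. For Slc16a10 the shCont array at P2 was dim, at -6.28 with a floor of -5.60, so the size of its difference is uncertain. Bcl11a and Bcl11b are zinc-finger partners of the COUP-TFs.

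**Figure D5:**
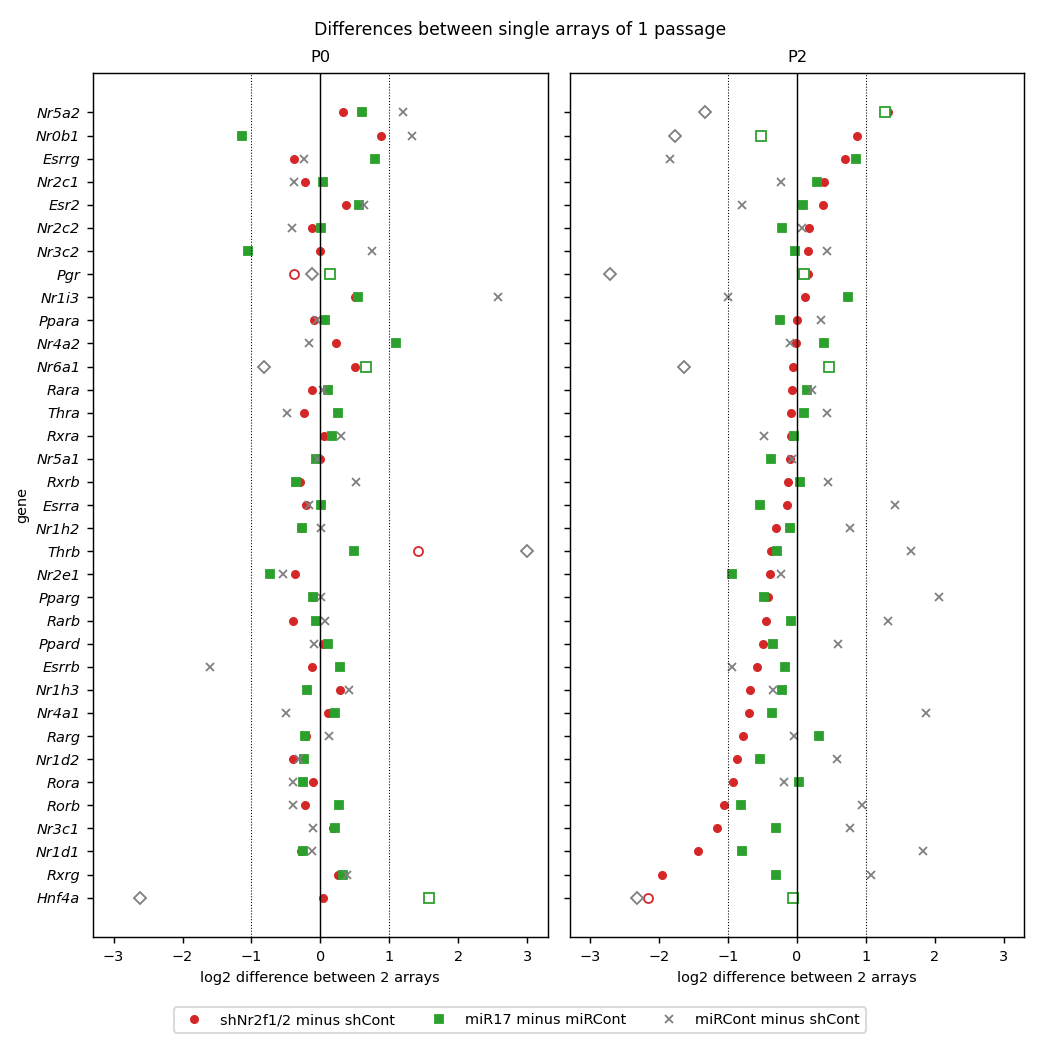
Log2 differences between 2 arrays of the same passage for the 35 tested receptor genes, at P0 (left) and P2 (right), for the knockdown (circles), miR-17 (squares) and the control vectors (crosses), with open symbols where either array was not well above background (open diamonds for the control vectors) and dotted lines at 2-fold. At P2 the filled circles for Rxrg, Nr1d1, Nr3c1 and Rorb lie beyond the left dotted line, and many control-vector symbols lie beyond either line.

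Overexpression of miR-17 gave no call for any member or any gene (limma, 0.0%), with 269 genes and 2 members at an unadjusted p under 0.05. The passage change in miR17 against the mean change of shCont and miRCont, from the same fit as for the knockdown, gave no call either (0.0%). There, 291 genes and no member reached that unadjusted level. Nr2e1 was lower with miR-17 at both passages, by -0.73 and -0.95, with a fitted difference of -0.84 (SE 0.25, unadjusted p = 0.020, adjusted p = 0.9997). The miR17 array held the lowest Nr2e1 level at each passage. Nr4a2 was higher, by 1.10 at P0 and 0.40 at P2, with a fitted 0.75 (SE 0.29, unadjusted p = 0.049).

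Among members well above background on both arrays, 1 of 32 was at least 2-fold higher with miR-17 at P0 (3.12%, against 2.88% of all genes) and 2 were lower (6.25%, against 1.23%). Nr4a2 was the higher one, and Nr0b1 and Nr3c2 were the lower ones, at -1.14 and -1.04. At P2 neither Nr3c2 (-0.03) nor any other of 30 such members differed by 2-fold, and 1.32% of all genes were higher and 0.784% lower. Nr0b1 was dim on both miRNA arrays at P2. Nr5a2 was dim with miRCont at P2 and at least 1.87-fold higher with miR-17, after a difference of 0.61 at P0.

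The control vectors, miRCont minus shCont, were compared in the same way, but they also differ in slide side. The knockdown and miR-17 comparisons each lie within 1 vector system and slide side, so the control differences are no noise level for them. No member or gene passed over both passages (limma, 0.0%, smallest adjusted p 0.133), and 2577 genes and 4 members had an unadjusted p under 0.05. These members were Esrrb, Thrb, Nr6a1 and Hnf4a. Esrrb, well above background on every array, had a difference of -1.28. Thrb was dim on the shCont P0 array, and with that array at its floor was at least 2.20-fold higher in miRCont at P0, with a difference of 1.66 at P2. Nr6a1 was dim on both miRCont arrays and at least 1.76-fold lower there at P0 and 1.92-fold lower at P2. Hnf4a was well above background on shRNA arrays alone, through which it entered the fit, and was at least 1.26-fold lower in miRCont at P0 and 1.03-fold lower at P2. At P0, 3 of 31 members well above background on both arrays were at least 2-fold higher in miRCont (9.68%, against 8.49%) and 1 was lower (3.23%, against 4.41%). Nr1i3 differed by 2.58, Nr0b1 by 1.33, Nr5a2 by 1.2 and Esrrb by -1.60.

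At P2, 7 of 30 such members were higher in miRCont (23.3%, against 9.88% of all genes) and 2 lower (6.67%, against 10.6%). Pparg was higher by 2.06, Nr4a1 by 1.87, Nr1d1 by 1.83, Thrb by 1.66, Esrra by 1.43, Rarb by 1.32 and Rxrg by 1.07. Esrrg was lower by -1.84 and Nr1i3 by -1.01. The knockdown differences at P2 use the same shCont array as these.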

How the data were processed

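Total RNA of 8 neurosphere cultures was hybridised to 1 Agilent array each (Cy3, 50 ng of RNA). The authors deposited 2 kinds of file. Scanner files, written by Feature Extraction (version 10.7.3.1 per the submitters' processing notes), give an intensity for each spot after detrending and background subtraction, per the file headers. A deposited table of signal is a linear rescaling of those intensities, with 1 factor for each array, as a match of the 2 files showed. The origin of the factors was not stated.

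Of 62976 spots, controls and 1104 flagged spots were left out. Spots of a probe were averaged as log2 intensity, and each array was centred on its 75th percentile. Genes whose brightest probe was well above background on at least 2 arrays (27120) were fitted with limma 3.58.1 in R 4.3.3, with condition and passage as factors (3 residual degrees of freedom, 2.21 prior), and called at a Benjamini-Hochberg adjusted p under 0.05, two-sided. Interactions were tested in separate fits, and the fit for knockdown and miR-17 by passage shared its passage term between shCont and miRCont. Fits were tested on simulated data. Alternatives covered background correction, normalization, filters, probe choice, prior, threshold, arrays and block. All 43 members are named, and from each pathway list up to 4 called genes with the largest passage difference, filled to 2, and 2 with the largest single-array difference. One gene that this rule selects is not reported here. Members and lists were chosen with earlier results of these data known.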

Additional observations from a re-analysis of the deposited data

Results flagged for a closer look

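Of 70 sets of 4 arrays (35 members at each passage), 2 held an array far from the other 3 by Dixon's criterion (2.86%, against 4.66% over all genes), and chance alone gives about 1 in 20. Rarb at P0 was lowest in shNr2f1/2, at -2.29, with the others between -1.89 and -1.82. Hnf4a at P2 was highest in shCont, at -4.95, the only P2 array on which it was well above background, with the others between -7.33 and -7.12.

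The passage difference differed between the miRNA and shRNA conditions in 7 members, by the limma interaction term chosen after the values were seen. The miRNA-minus-shRNA value was -2.78 for Nr0b1, -3.29 for Nr1i3, 2.48 for Nr4a1, -2.69 for Nr5a2, 2.02 for Pparg, -1.67 for Esr2 and -2.89 for Pgr. Pgr entered the fit only through the 2 shRNA arrays at P2, where it was high, so its value is a description. Over all genes, 2363 passed this term. Vector system and slide side cannot be told apart.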

How the results depend on the processing

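Of 864 comparisons of a member's difference with an alternative, 728 kept direction and call, 60 lost and 41 gained significance and 35 changed sign, all in comparisons in which that member was not called. The passage test was paired within condition, and without that block 3921 genes and 7 members upward were called. Normexp called all 7 members of the passage test and also Nr1d2, Nr5a2, Rara, Rorb and Thra. The passage count of 1383 genes became 8750 at an adjusted p under 0.10 (11 members upward, 5 downward), 6989 with normexp (8 upward), 3666 with the filter on all 8 arrays, 2185 with probes averaged, 4304 with a trended prior (7 upward), 0 with the shRNA or control conditions alone and 13638 with the miRNA conditions alone (14 upward, 8 downward). Leaving out 1 array gave 0 to 4880 genes, 0 to 7 members upward and 0 to 4 downward, and for the vector system term 0 to 3363 genes and 0 to 9 members. The filter on all 8 arrays called 2 genes between control vectors.

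Passage differences that changed sign were those of Esrra (-0.017 by quantile normalization, -0.57 in shRNA conditions, -0.23 to 0.31 without 1 array), Esrrg (0.0072 with normexp, 0.28 by quantile normalization, 0.11 with probes averaged, 0.0024 in the authors' table, 1.04 in shRNA conditions, -0.54 to 0.35 without 1 array), Nr1h2 (-0.13 in shRNA conditions), Nr3c2 (-0.12 with normexp, -0.11 in control conditions, -0.0053 to 0.33 without 1 array), Pgr (-0.17 in miRNA conditions), Ppara (-0.060 in shRNA conditions, -0.051 to 0.081 without 1 array) and Rxra (0.21 by quantile normalization, 0.23 in shRNA conditions, -0.32 to 2.5e-05 without 1 array). Without 1 array the knockdown difference ranged from -0.052 to 1.81 for Nr0b1, -2.0 to 0.29 for Nr1d1, -0.40 to 2.05 for Nr5a2 and -2.08 to 0.37 for Rxrg, and that of miR-17 from -1.97 to 0.30 for Nr0b1 and -0.18 to 2.06 for Nr5a2. The cause was not tested.

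Members past 2-fold in the knockdown numbered 1 at P0 and 6 at P2, in miR-17 4 and 1, and between control vectors 6 and 14, dim arrays included. With normexp these were 0 and 3, 1 and 0, and 3 and 7. With probes averaged the knockdown at P0 and miR-17 at P2 gave 0. At a 1.5-fold limit the knockdown gave 2 and 13 and miR-17 8 and 6. At 4-fold the counts were 0 and 1, 0 and 0, and 3 and 3. With both arrays well above background, a limit added after seeing the data, the knockdown at P0 gave 0, miR-17 at P2 gave 0 and the control vectors at P2 gave 9.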
